A study of Mus musculus with 16 samples.

Results

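Expression was followed for Bend7, Prkcq, Hacd1, Cacnb2, Armc3, Thnsl1 and Dnlz, 7 of the 55385 genes counted in brain CD11b+ cells of Card9-intact and Card9-deficient mice. These 7 genes were chosen because they lie on the proximal part of chromosome 2, as Card9 does, and because their read counts had been seen to differ by Card9 genotype in these same libraries. The values that compare Card9 genotypes are therefore given as a description without p-values, and nothing is read from these genes passing a threshold. Changes of the 7 genes with the 5xFAD transgenes draw on the same 16 libraries and are described in the same way.

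Bulk RNA-Seq was performed on cells held on magnetic columns by CD11b beads, from brains of mice at 20 weeks of age, with 4 libraries in each of 4 genotypes. WT mice carried intact Card9 and no transgenes, Card9-/- mice lacked Card9 in the germline, 5xFAD mice carried the 5xFAD transgenes, which include human mutant APP, with intact Card9, and Card9-/-5xFAD mice carried the transgenes and lacked Card9. The mice descended from crosses of 5xFAD, Card9-/- and C57BL/6J stocks, and all received the same sort after removal of the meninges and choroid plexus. The authors name female mice among the stocks and do not state the sex of the mice sequenced. The transgenes are driven by the neuronal Thy1 promoter, so their product comes mainly from neurons and not from the sorted cells, and a germline deletion removes Card9 from every cell type. The labels do not say whether each library is a separate mouse, so the p-values below measure the spread between these libraries, which may in part be technical.

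CARD9 is an adaptor protein of myeloid cells that passes signals from C-type lectin receptors such as CLEC7A through SYK to BCL10 and MALT1 and on to NF-κB. The 7 genes have no shared pathway: they encode a calcium channel subunit, a protein kinase, an enzyme of lipid synthesis, a relative of an amino acid synthase, a mitochondrial chaperone partner, and DNA-binding or repeat proteins. Genes that lie close together on a chromosome tend to be inherited together. Counts per gene hold no sequence variants, and which strain the chromosome around the Card9 allele came from was not tested.

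Between 2970148 and 19333325 reads per library were counted on genes (median 7944265), with reads on 18695 to 23757 genes. All 8 microglial markers examined, among them P2ry12, Tmem119 and Cx3cr1, were present in every genotype, with a summed level of 12271 to 28850 CPM (a gene's counts per effective library size by the TMM method, the scale of all levels below) in WT, 13370 to 29000 in Card9-/-, 12484 to 27480 in 5xFAD and 11658 to 25047 in Card9-/-5xFAD. The lowest microglial sum of each genotype was in WT replicate 1, Card9-/- replicate 4, 5xFAD replicate 1 and Card9-/-5xFAD replicate 4. In all other libraries this sum was 17757 to 29000 CPM. The 3 libraries with the fewest counts were WT replicate 1, Card9-/- replicate 4 and Card9-/-5xFAD replicate 4. Their neutrophil marker sums were the highest of all 16 libraries, at 3293, 5862 and 5114 CPM, against 359 to 1893 CPM elsewhere. In a bulk sample, fewer cells of a type and less RNA per cell cannot be told apart.

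Card9 itself was read first in every library. WT libraries 1 to 4 held 13.6, 51.3, 43.2 and 39.3 CPM, and the libraries labelled Card9-/- held 31.6, 34.8, 33.2 and 16.7 CPM. With the transgenes, Card9 was at 15.6, 32.6, 29.1 and 33.5 CPM in 5xFAD and at 26.6, 33.7, 9.73 and 10.8 CPM in the libraries labelled Card9-/-5xFAD. The ranges overlapped in both backgrounds, so the count of Card9 did not separate the labelled genotypes over all 16 libraries, and every direction by Card9 genotype below rests on the labels. Without the 3 libraries of fewest counts, an alternative chosen after the data were seen, Card9 ran from 39.3 to 51.3 CPM in WT and from 31.6 to 34.8 CPM in Card9-/-, ranges that were apart as were those of 16.1% of all genes tested, and it still overlapped with transgenes, at 15.6 to 33.5 and 9.73 to 33.7 CPM. The exons that the reads came from cannot be seen in the table, and Card9 shares 87 exon bases with Gm13562 on the opposite strand.

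In GRCm38, the assembly that mm10 holds, the 7 genes lie on chromosome 2 within 21.6 Mb of Card9, whose own span on the minus strand runs from 26352176 to 26360918. In order along the chromosome, Bend7 runs from 4717831 to 4802142 on the plus strand, Prkcq from 11172108 to 11301222 on the plus strand, Hacd1 from 13850282 to 14056135 on the minus strand and Cacnb2 from 14603088 to 14987908 on the plus strand. Armc3 follows from 19199302 to 19310241 and Thnsl1 from 21205724 to 21215009, both on the plus strand. Dnlz, on the minus strand from 26348121 to 26352110, is the immediate neighbor of Card9, and 65 bases separate the 5′ end of Dnlz from the 3′ end of Card9.

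Promoter sequence was matched in RefSeq (GRCm38.p6) for 6 of the 7 genes, with no entry for Bend7. The windows shown are those of the 2 genes whose Card9 genotypes were apart in both backgrounds, Cacnb2 and Thnsl1, and the gap between Dnlz and Card9. Cacnb2 has 2 listed starts, and the 250 bases before each are chr2:14604056-14604305 and chr2:14823842-14824091, both on the plus strand, with 73.2% and 46.0% G+C. The window of Thnsl1 is chr2:21205474-21205723 on the plus strand, with 57.2% G+C. The gap beside Dnlz is chr2:26352111-26352175, read on the minus strand. Capitals mark the GC box GGGCGG or its reverse complement CCGCCC.
Cacnb2, upstream start: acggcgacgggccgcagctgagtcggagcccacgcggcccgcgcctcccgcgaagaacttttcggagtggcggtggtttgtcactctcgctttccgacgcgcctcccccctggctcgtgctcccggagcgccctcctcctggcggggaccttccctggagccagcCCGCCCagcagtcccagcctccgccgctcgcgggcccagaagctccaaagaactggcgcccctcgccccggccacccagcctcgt
Cacnb2, downstream start: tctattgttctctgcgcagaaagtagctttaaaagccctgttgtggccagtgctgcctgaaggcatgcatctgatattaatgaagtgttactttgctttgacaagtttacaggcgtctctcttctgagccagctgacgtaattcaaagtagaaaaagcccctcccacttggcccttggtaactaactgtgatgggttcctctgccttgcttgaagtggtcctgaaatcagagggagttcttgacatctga
Thnsl1: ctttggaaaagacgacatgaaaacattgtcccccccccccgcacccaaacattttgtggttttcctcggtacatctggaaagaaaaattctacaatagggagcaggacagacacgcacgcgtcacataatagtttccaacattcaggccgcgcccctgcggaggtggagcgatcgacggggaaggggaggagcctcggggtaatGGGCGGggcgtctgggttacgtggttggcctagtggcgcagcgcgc
Dnlz to Card9 gap: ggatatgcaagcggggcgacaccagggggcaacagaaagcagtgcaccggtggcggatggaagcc

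The GC box GGGCGG was present on either strand in 5 of the 7 windows of the members (those of Armc3, Hacd1, Prkcq, Thnsl1 and the upstream start of Cacnb2), and in 32.7% of all 32851 RefSeq windows. The Dnlz window held only 65 bases, against 250 in each other member window, and so had less room for any motif. CCAAT was found in the Armc3 window and in 33.8% of all windows. No member window held TATAAA (12.4% of all windows), the ETS-type motif GAGGAAGT (2.44%) or the AP-1 motif TGACTCA (4.46%), searched on both strands. These matches describe the letters of each window and not binding sites.

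Levels of the 7 genes in WT cells differed widely. Scaled by exon length, WT means were 59.4 CPM per kb for Armc3, 14.4 for Dnlz, 5.66 for Hacd1, 0.775 for Thnsl1, 0.466 for Prkcq, 0.175 for Cacnb2 and 0.147 for Bend7 (n = 4). On this scale the WT ranges of neighbors in the order overlapped for Armc3 and Dnlz, for Thnsl1 and Prkcq, and for Cacnb2 and Bend7, and were apart for Dnlz and Hacd1, Hacd1 and Thnsl1, and Prkcq and Cacnb2. For comparison, Card9 averaged 16.1 CPM per kb. All 7 genes passed the filter on low counts, Bend7 chiefly through the 5xFAD libraries, where it was highest.

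**Figure D1:**
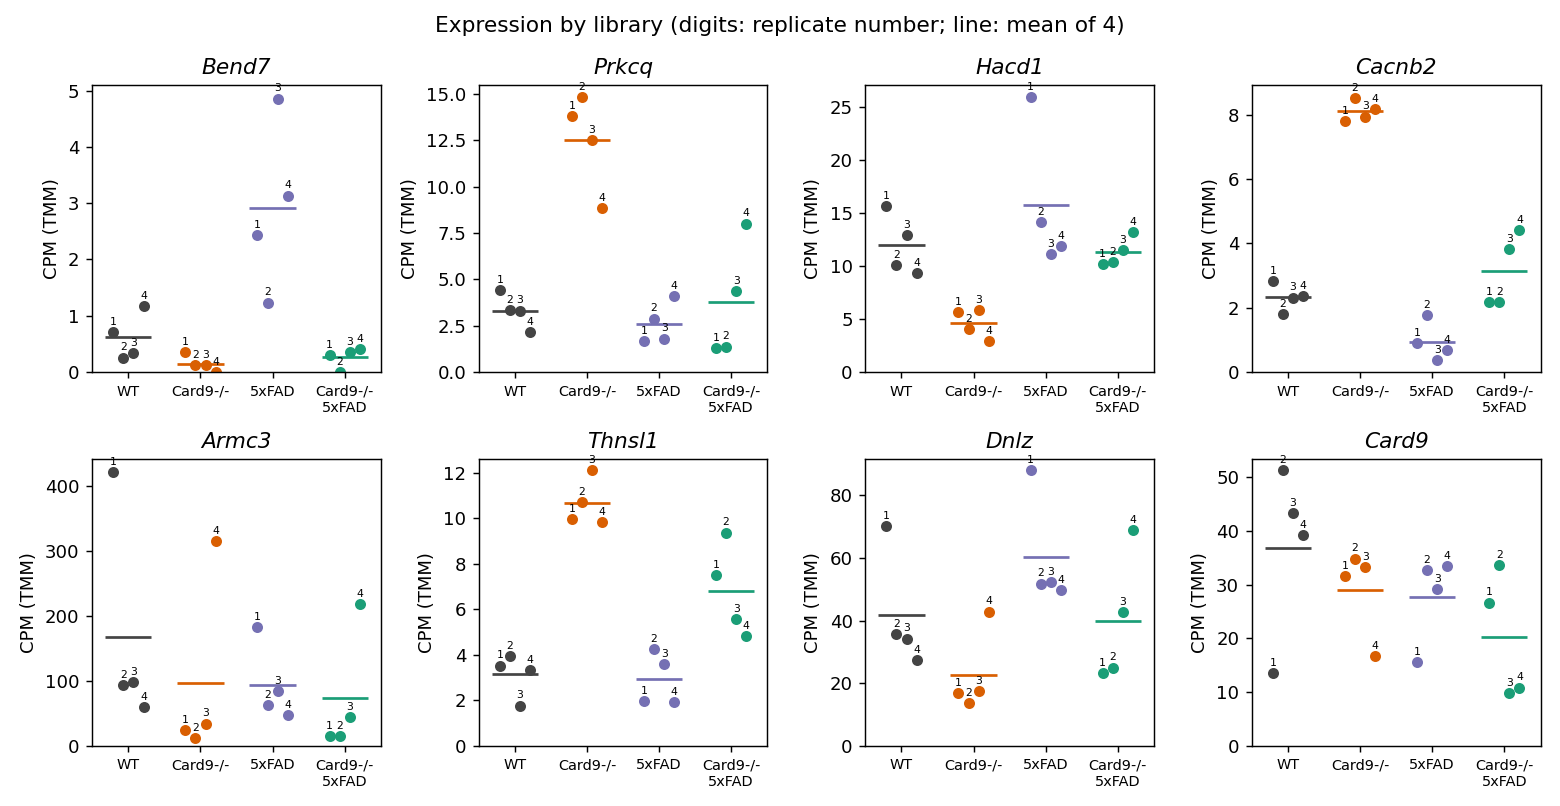
CPM (y axis, linear, TMM-scaled) of the 7 genes, in chromosomal order, and of Card9 in each of the 16 libraries, grouped on the x axis by genotype; digits are replicate numbers and each line is the mean of 4 libraries. Cacnb2 and Thnsl1 were higher in all Card9-deficient libraries than in all intact libraries of the same background, and Armc3 was highest in WT replicate 1 at 422 CPM.

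The Card9 genotypes were compared library by library in each transgene background. Ranges were called apart where all 4 deficient libraries lay above, or all 4 lay below, the 4 intact ones. Without transgenes, ranges were apart for 4 of the 7 genes, against 2.66% of the 14513 genes tested. Cacnb2, Prkcq and Thnsl1 were higher and Hacd1 was lower. With transgenes, ranges were apart for 3 of the 7 genes, against 1.89% of all genes tested. Cacnb2 and Thnsl1 were higher and Bend7 was lower. Cacnb2 and Thnsl1 were apart in the same direction in both backgrounds, as were 27 genes in all (0.186% of genes tested, with 0.0689% higher and 0.117% lower in Card9-deficient libraries). Since the choice of the 7 genes used these contrasts, nothing is read from the shares.

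Cacnb2, which encodes an auxiliary β subunit of voltage-gated calcium channels that helps bring the pore-forming subunit to the membrane, was measured at 2.82, 1.80, 2.32 and 2.35 CPM in WT libraries 1 to 4. Card9-/- libraries held 7.81, 8.52, 7.94 and 8.18 CPM. All 4 were close together and well above WT, and the log2 fold change was 1.81 (SE 0.40). In 5xFAD the 4 values were 0.910, 1.78, 0.360 and 0.681 CPM, while Card9-/-5xFAD libraries had 2.17, 2.17, 3.82 and 4.41 CPM. The 2 groups were again apart, with a log2 fold change of 1.68 (SE 0.43), though at a lower level in both. Cacnb2 rested on 2 to 22 counts per library in every group but Card9-/-, where it had 25 to 206. Its exons overlap 3 genes annotated on the opposite strand, of which Gm10849 had 0 counts in every library and Gm13269 and Gm10848 had at most 11 and 7, and no strand setting of the counting is given in the sources used here.

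Thnsl1 encodes a threonine synthase-like protein whose mammalian function is poorly defined. WT libraries 1 to 4 held 3.52, 3.94, 1.76 and 3.32 CPM and Card9-/- libraries held 9.97, 10.7, 12.1 and 9.81 CPM. The lowest Card9-/- library was thus above the highest WT library, and the log2 fold change was 1.76 (SE 0.36). In 5xFAD, Thnsl1 was at 1.97, 4.25, 3.60 and 1.91 CPM, whereas Card9-/-5xFAD libraries held 7.50, 9.36, 5.56 and 4.81 CPM. The groups did not overlap, and the log2 fold change was 1.23 (SE 0.36). Replicates 3 and 4 of Card9-/-5xFAD, the libraries with the fewest counts of that genotype, were nearest to the 5xFAD range.

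Prkcq encodes protein kinase C theta, a kinase best known for signaling below the T cell receptor. Its values were 4.40, 3.34, 3.31 and 2.14 CPM in WT libraries 1 to 4 and 13.8, 14.8, 12.5 and 8.83 CPM in Card9-/- libraries, which were all higher, with a log2 fold change of 1.93 (SE 0.51). The 5xFAD libraries held 1.67, 2.88, 1.80 and 4.09 CPM. In Card9-/-5xFAD, replicates 1 and 2 were below this range, at 1.28 and 1.37 CPM, and replicates 3 and 4 were above it, at 4.34 and 8.01 CPM. The log2 fold change with transgenes was 0.43 (SE 0.53), and it was −0.20 (SE 0.48) without Card9-/-5xFAD replicate 4. The difference between the backgrounds was −1.50 on the log2 scale (SE 0.73).

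Since Prkcq is best known from T cells, 10 T cell markers were examined beside it. Their summed level was 11.98 to 29.9 CPM in WT, 13.6 to 61.5 in Card9-/-, 7.22 to 13.0 in 5xFAD and 5.25 to 17.2 in Card9-/-5xFAD. The Card9-/- library with the highest sum, replicate 4 at 61.5 CPM, of which Cd4 made up 47.4 CPM, had the lowest Prkcq level of its genotype, and the other 3 Card9-/- libraries had sums of 13.6 to 14.7 CPM, within the WT range. In Card9-/-5xFAD, the library with the highest sum, replicate 4 at 17.2 CPM, had the highest Prkcq level of its genotype. Pearson's r between Prkcq and the T cell sum over the 16 libraries was 0.497. The part of T cells in the Prkcq values was not tested. Cd3e had at most 2 counts in any library and 0 in Card9-/-5xFAD, where Cd8a was also at 0, as it was in Card9-/-.

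Hacd1 encodes a 3-hydroxyacyl-CoA dehydratase of the very-long-chain fatty acid elongation cycle, known for its role in muscle. WT libraries 1 to 4 held 15.7, 10.1, 12.9 and 9.31 CPM and Card9-/- libraries held 5.64, 4.05, 5.81 and 2.94 CPM, all lower, with a log2 fold change of −1.35 (SE 0.33). In the transgenic background the values were 25.9, 14.1, 11.2 and 11.8 CPM in 5xFAD and 10.2, 10.4, 11.5 and 13.2 CPM in Card9-/-5xFAD. Replicates 3 and 4 of Card9-/-5xFAD fell within the 5xFAD range, and the log2 fold change was −0.48 (SE 0.32), or −0.15 (SE 0.30) without 5xFAD replicate 1. The difference between the backgrounds was 0.87 on the log2 scale (SE 0.45).

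Bend7 encodes a BEN domain protein, a family that includes DNA-binding transcriptional regulators. It was near the limit of detection, and its reads are given as counts: 4, 3, 3 and 11 in WT libraries 1 to 4, 3, 3, 2 and 0 in Card9-/-, then 16, 9, 27 and 23 in 5xFAD. The Card9-/-5xFAD libraries had 3, 0, 2 and 1. Without transgenes the genotypes overlapped, through Card9-/- replicate 1, whereas with transgenes each 5xFAD library was above each Card9-/-5xFAD library. Relative to library size, the pooled count was 3.85-fold higher in WT than in Card9-/- (21 against 8 reads) and 12.7-fold higher in 5xFAD than in Card9-/-5xFAD (75 against 6 reads). The pooled counts leave out the spread between libraries. Bend7 was chosen on these contrasts and passed the filter on low counts chiefly through the 5xFAD libraries, so nothing is read from these ratios.

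Armc3, which encodes an armadillo repeat protein best known from testis and ciliated cells, was the most variable of the 7 genes. WT libraries 1 to 4 held 422, 93.5, 98.5 and 59.1 CPM and Card9-/- libraries 24.3, 11.6, 34.2 and 316 CPM. In 5xFAD the values were 183, 62.5, 84.4 and 47.5 CPM, whereas those of Card9-/-5xFAD were 14.5, 14.9, 43.6 and 219 CPM. In each Card9-deficient genotype, replicates 1 to 3 were below every intact library of the same background, and replicate 4 was far above the rest. The log2 fold changes were accordingly imprecise, at −0.81 (SE 1.02) without and −0.38 (SE 1.02) with transgenes. They turned to 0.18 (SE 1.03) without WT replicate 1 and to 0.13 (SE 1.09) without 5xFAD replicate 1.

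Dnlz encodes DNLZ, a zinc finger protein of mitochondria that partners the chaperone HSPA9. Its values were 70.2, 35.7, 34.2 and 27.4 CPM in WT libraries 1 to 4 and 16.9, 13.6, 17.5 and 42.9 CPM in Card9-/- libraries. Only Card9-/- replicate 4 fell within the WT range. The 5xFAD libraries held 88.0, 51.8, 52.2 and 49.7 CPM and the Card9-/-5xFAD libraries 23.1, 24.99, 42.6 and 68.9 CPM, of which replicate 4 alone was within the 5xFAD range. The log2 fold change was −0.90 (SE 0.44) without and −0.61 (SE 0.43) with transgenes. Dnlz shares 117 exon bases with Gpsm1 on the opposite strand.

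Armc3 and Dnlz were each highest in replicate 1 of WT and of 5xFAD and in replicate 4 of Card9-/- and of Card9-/-5xFAD. All but 5xFAD replicate 1, which had 7188423 counts, are the 3 libraries with the fewest counts. Each of these 4 libraries also held the lowest microglial marker sum of its genotype. All 5 neutrophil markers were detected in each genotype, with sums of 637 to 3293 CPM in WT, 434 to 5862 in Card9-/-, 520 to 1893 in 5xFAD and 359 to 5114 in Card9-/-5xFAD, and the 4 highest sums were in the 4 libraries with the highest Armc3. Neutrophil sums rest chiefly on S100a8, S100a9 and Retnlg, and Mmp8 and Ly6g were not highest in the 3 libraries of fewest counts. Platelet marker sums were highest in the 3 libraries of fewest counts, at 1003 CPM in WT replicate 1, 1127 in Card9-/- replicate 4 and 1207 in Card9-/-5xFAD replicate 4, against 139 to 480 CPM elsewhere. Of this list, only Pf4 and Gp9 carried the sums. Gp1bb had 0 counts throughout, and Ppbp and Itga2b had at most 9 and 17 in any library. Endothelial marker sums were 143, 132 and 85.7 CPM in the 3 libraries of fewest counts, against 32.7 to 79.2 CPM elsewhere. Cdh5, Flt1 and Ly6c1 were each highest in 1 of these 3 libraries, but Pecam1 and Cldn5 were not. Ciliated cell markers summed to at most 19.3 CPM, in Card9-/- replicate 4, and their defining gene Foxj1 had at most 1 count in any library. The part of these cells in the Armc3 and Dnlz values was not tested.

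When the 3 libraries of fewest counts were left out, Armc3 and Dnlz did not overlap between the Card9 genotypes in either background. This alternative was chosen after the data were seen, and it removes replicate 4 of both Card9-deficient genotypes, through which the ranges had overlapped. Armc3 then ran from 59.1 to 98.5 CPM in WT while Card9-/- ran from 11.6 to 34.2, and with transgenes it ran from 47.5 to 183 CPM in intact and from 14.5 to 43.6 CPM in deficient libraries. The corresponding Dnlz ranges were 27.4 to 35.7 and 13.6 to 17.5 CPM without transgenes, and 49.7 to 88.0 and 23.1 to 42.6 CPM with them. The log2 fold changes of Armc3 became −1.84 (SE 0.55) and −1.97 (SE 0.53), and those of Dnlz −1.02 (SE 0.30) and −1.01 (SE 0.29). With Cacnb2 and Thnsl1, 4 of the 7 genes were then apart in both backgrounds, where 108 genes in all were (0.744% of genes tested). Taken singly, ranges were then apart for 16.1% of all genes tested without transgenes and for 3.52% with them. The 7 genes were chosen on these contrasts, so nothing is read from these shares.

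**Figure D2:**
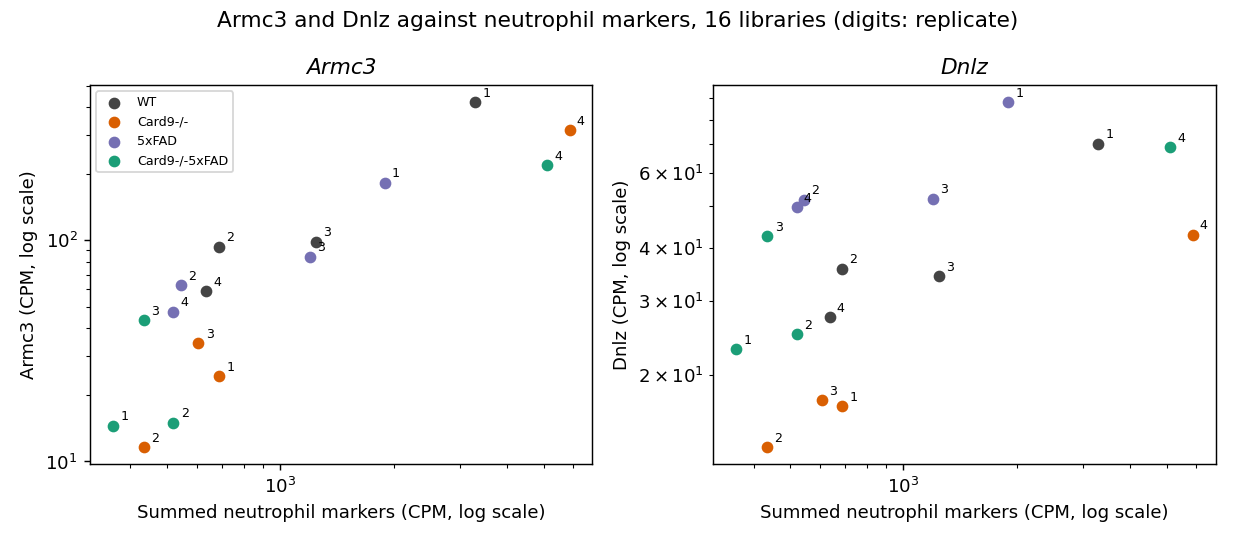
Armc3 (left) and Dnlz (right) in CPM on the y axis against the summed CPM of 5 neutrophil markers on the x axis, both on log scales, 1 point per library, colored by genotype and numbered by replicate. The 3 points at the right, at 3293, 5114 and 5862 CPM of neutrophil markers, are the libraries with the fewest counts and hold Armc3 at 422, 219 and 316 CPM.

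**Figure D3:**
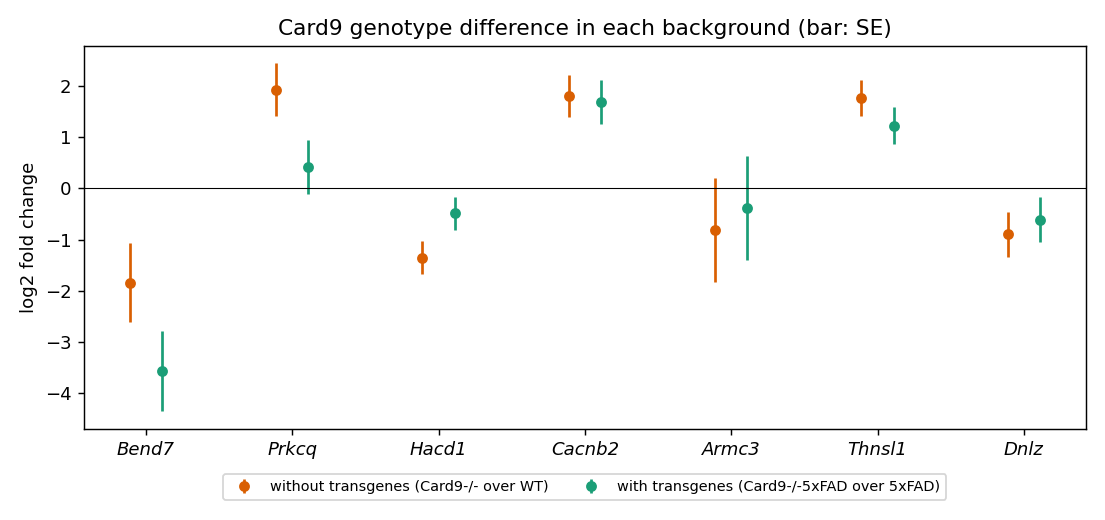
Log2 fold change of each gene by Card9 genotype (y axis), with bars of 1 SE, for the 4 Card9-/- over the 4 WT libraries and for the 4 Card9-/-5xFAD over the 4 5xFAD libraries. Cacnb2 and Thnsl1 lie at 1.23 to 1.81 in both backgrounds, Prkcq at 1.93 and 0.43, and the bars of Armc3 cross 0.

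Across all genes, edgeR's quasi-likelihood test with Benjamini-Hochberg adjustment (FDR 0.1) passed 0 of 14513 genes (0.0%) between Card9-/- and WT and 0 (0.0%) between Card9-/-5xFAD and 5xFAD. At an unadjusted p under 0.05 the numbers were 597 and 366, and DESeq2 on all 16 libraries passed 5 and 2 genes. The mean Card9 effect over both backgrounds passed 4 genes (0.0276%), of which 2, Cacnb2 and Thnsl1, are among the 7, and these 2 are also among the 5 that DESeq2 passed between Card9-/- and WT. The 7 genes were chosen on these contrasts, so nothing is read from their calls. In the mean effect, Cacnb2 and Thnsl1 were both among the 75 genes past the threshold with 1 surrogate variable. Thnsl1 alone of the 7 was among the 5 with the replicate number as a block. Neither was past it with DESeq2 size factors, without the filter on low counts or without the 3 libraries of fewest counts. DESeq2 on all 16 libraries passed 106 genes in this effect and 0 of the 7, of which 6 had no adjusted p.

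The rest of chromosome 2 was examined for the same pattern. Of 1094 chromosome 2 genes tested, 4 were apart by Card9 genotype in both backgrounds (0.366%, against 0.186% of all genes tested). They were Cacnb2 and Thnsl1, which had been chosen on this contrast, and Gm37780 and Etl4. All 4 were higher in Card9-deficient libraries and within 13.2 Mb of Card9. Gm37780, a short gene model 13.2 Mb from Card9, had a mean log2 fold change of 1.01 (SE 0.23, FDR = 0.298 by edgeR), with 2.23 to 4.07 CPM in WT, 4.92 to 6.33 in Card9-/-, 1.36 to 2.73 in 5xFAD and 3.20 to 5.13 in Card9-/-5xFAD. Etl4, 6.44 Mb from Card9, had a mean log2 fold change of 1.21 (SE 0.33, FDR = 0.496 by edgeR), with 1 to 11 counts per library in WT. Neither passed the threshold.

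Of the 326 other genes within 25 Mb of Card9, 2 (0.613%) were apart in both backgrounds, against 0.186% of all genes tested. An unadjusted p under 0.05 for the mean Card9 effect was found for 36 (11.0%), against 9.12% of all genes tested. Among the 761 chromosome 2 genes farther away, 0 were apart in both and 65 (8.54%) had an unadjusted p under 0.05. The 10 Mb interval that holds Prkcq, Hacd1, Cacnb2 and Armc3 (10 to 20 Mb) had the highest such share of any on the chromosome, with 11 of 43 other genes (25.6%), against 2.04% to 14.3% in the rest. The interval that holds Card9 itself (20 to 30 Mb) had 12 of 114 other genes (10.5%). The first interval was singled out after all shares were seen, and its members were chosen on this contrast, so nothing is read from its share. Besides the 7 genes, the lowest p-values on chromosome 2 belonged among higher genes to Gm37780, Etl4 and Il15ra (log2 fold change 0.78, SE 0.22, FDR = 0.496), and among lower genes to Scand1 (−1.17, SE 0.32), Dnajc17 (−0.81, SE 0.24) and Map1lc3a (−0.75, SE 0.22), which lie 92.8 to 130 Mb from Card9.

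Genes nearest to Card9 were examined separately. Of 19 genes tested that start within 0.5 Mb of it, Dnlz and Card9 included, 0 were apart without transgenes and 1, Snapc4, was apart with them. Snapc4, a subunit of the complex that activates small nuclear RNA genes and a next neighbor of Card9, had a mean log2 fold change of 0.89 (SE 0.27, FDR = 0.496 by edgeR). Mean log2 fold changes of the other 16 ran from −0.60 for Dipk1b to 0.56 for Notch1, and Gpsm1, which overlaps Dnlz, was at −0.25 (SE 0.44).

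**Figure D4:**
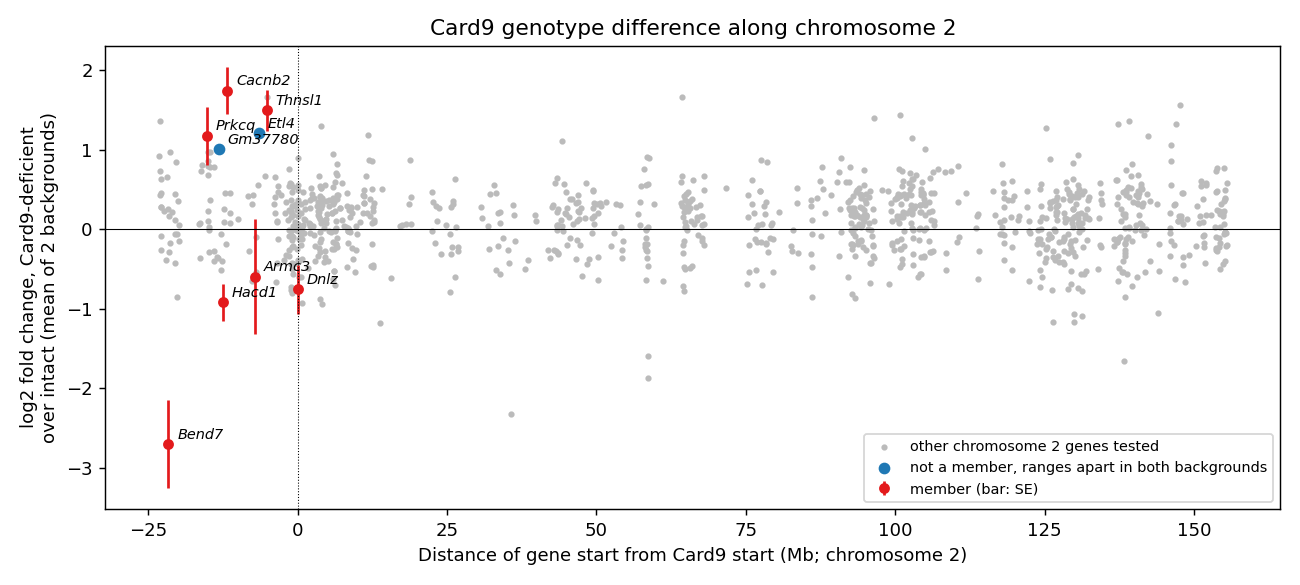
Mean log2 fold change of Card9-deficient over intact libraries (y axis) for the 1094 chromosome 2 genes tested, against the distance of each gene's start from that of Card9 in Mb (x axis; negative toward the centromere). The 7 genes are red with bars of 1 SE, the other 2 genes apart in both backgrounds are blue, and all lie between 21.6 Mb before Card9 and Card9 itself.

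The 5xFAD transgenes were compared next, with the mean of 5xFAD against WT and Card9-/-5xFAD against Card9-/-. The libraries on which the 7 genes were noticed as high or low by Card9 genotype also enter this comparison, so it is not independent of the choice, and the values of the 7 genes are again a description without a test. Across all 14513 genes tested, 11.3% passed FDR 0.1 by edgeR for the mean transgene effect (5.62% higher and 5.73% lower), 2.09% between 5xFAD and WT and 1.97% between Card9-/-5xFAD and Card9-/-. Library by library, 2 of the 7 genes, Cacnb2 and Bend7, had ranges apart between 5xFAD and WT (8.04% of all genes tested), and 4, Cacnb2, Prkcq, Thnsl1 and Hacd1, had them between Card9-/-5xFAD and Card9-/- (7.01%).

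Cacnb2 was lower with the transgenes, by a mean log2 fold change of −1.34 (SE 0.29). Each 5xFAD library was below each WT library, although by a margin of only 1.78 against 1.80 CPM, and each Card9-/-5xFAD library was below each Card9-/- library. The log2 fold change was −1.28 (SE 0.43) between 5xFAD and WT and −1.40 (SE 0.40) between Card9-/-5xFAD and Card9-/-. Ranges apart in the same direction in both Card9 genotypes were found for this 1 of the 7 genes and for 2.55% of all genes tested.

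Hacd1 was higher with the transgenes mainly among Card9-deficient libraries, with 2.94 to 5.81 CPM in Card9-/- and 10.2 to 13.2 CPM in Card9-/-5xFAD and a log2 fold change of 1.27 (SE 0.33). Those Card9-/- values are the low ones for which Hacd1 was chosen. Between WT and 5xFAD the ranges overlapped and the log2 fold change was 0.40 (SE 0.32).

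Prkcq had a log2 fold change of −1.83 (SE 0.52) between Card9-/-5xFAD and Card9-/-, with ranges apart, and here too the Card9-/- values are the high ones for which the gene was chosen. Between 5xFAD and WT it was −0.32 (SE 0.51), with overlapping ranges. Of the 10 T cell markers, 4 were tested and 2, Cd4 and Lck, were lower with the transgenes in the mean effect, and the part of T cells in the Prkcq value was not tested.

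The other 4 genes gave mean log2 fold changes of 1.36 (SE 0.58) for Bend7, 0.68 (SE 0.31) for Dnlz, −0.37 (SE 0.25) for Thnsl1 and −0.62 (SE 0.72) for Armc3. Each Bend7 value in 5xFAD was above each WT value, by 1.23 against 1.18 CPM at the nearest, but Bend7 passed the filter on low counts chiefly through the 5xFAD libraries and nothing is read from this. In Card9-deficient cells Bend7 had at most 3 counts in any library with or without transgenes. Without the 3 libraries of fewest counts, Dnlz had a log2 fold change of 0.94 (SE 0.21).

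**Figure D5:**
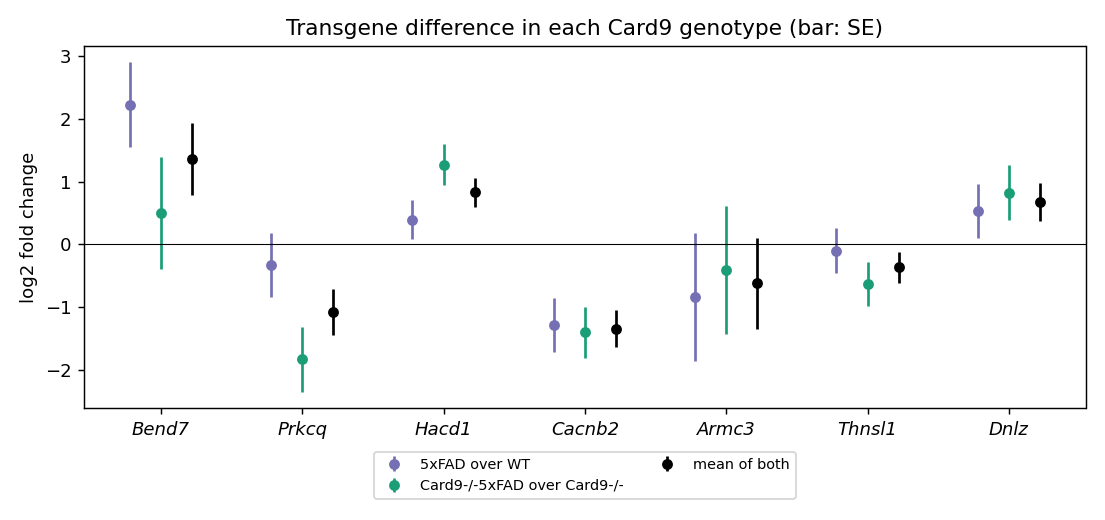
Log2 fold change of each gene with the 5xFAD transgenes (y axis), with bars of 1 SE, for 5xFAD over WT, for Card9-/-5xFAD over Card9-/- and for their mean, 4 libraries per group. Cacnb2 lies below 0 in each comparison, Hacd1 above 0 in each, and Prkcq is at −0.32 and −1.83 in the 2 Card9 genotypes.

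Relatives and partners of the 7 genes were examined as lists. By Card9 genotype, 0 genes of any of the 8 lists passed FDR 0.1 in either background or in the mean effect. At an unadjusted p under 0.05 for the mean effect, where 9.12% of all genes tested lay, the counts were 1 of 5 tested calcium channel subunits, 0 of 7 protein kinase C genes, 2 of 9 genes of very-long-chain fatty acid elongation, 2 of 10 partners of mitochondrial HSP70, 0 of 6 BEN domain genes, 0 of 8 armadillo repeat-containing genes and 1 of 12 CARD9 signaling partners. List medians of the log2 fold change ran from −0.30, for fatty acid elongation, to 0.35, for protein kinase C genes, with a median of 0.13 over all genes tested. Thnsl2, the paralog of Thnsl1, was at −0.38. Hacd2 and Hacd4, relatives of Hacd1, were at −0.75 (SE 0.25, FDR = 0.496) and −0.48 (SE 0.20, FDR = 0.520).

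With the transgenes, where 11.3% of all genes tested passed, each list but that of Thnsl2 alone had 1 to 3 genes past the threshold, and nothing particular to a list is read from such counts. Of 5 calcium channel subunits 1 rose, Cacnb4 (log2 fold change 1.38, SE 0.33, FDR = 0.0195), another β subunit. Among 7 protein kinase C genes 1 fell, Prkca (−0.99, SE 0.22, FDR = 0.0112). Among 9 elongation genes 1 rose, Hacd2 (1.85, SE 0.25, FDR = 0.000251). Hscb, a cochaperone of iron-sulfur cluster assembly, rose among 10 HSP70 partners (1.11, SE 0.34, FDR = 0.0645), Bend4 fell among 6 BEN domain genes (−1.66, SE 0.52, FDR = 0.0672) and Armc2 rose among 8 armadillo repeat genes (2.30, SE 0.46, FDR = 0.00617). Of 12 CARD9 partners, the receptor gene Clec7a rose (3.34, SE 0.26, FDR = 7.92e-07), and Clec4n (−0.87, SE 0.28, FDR = 0.0763) and Clec4e (−0.97, SE 0.30, FDR = 0.0687) fell. List medians ran from −0.51 for the CARD9 partners to 0.45 for the elongation genes, against −0.15 over all genes tested, all FDR values being from edgeR.

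Genes with the most similar pattern across the 16 libraries were found by Pearson's r of log2 CPM, given as a description since libraries share genotype and depth. Cacnb2 was most like Zfr2 (r = 0.908), Prkcq like Col15a1 (r = 0.855), Bend7 like Meaf6 (r = 0.820) and Hacd1 like Tmem14c (r = 0.930). Thnsl1 was most like Gm37780 (r = 0.823), and Cacnb2 was the third in its order (r = 0.744). Armc3 was most like Cmtm8 (r = 0.961), Lgals1 (r = 0.957) and Ccl5 (r = 0.956). Dnlz was most like Edf1 (r = 0.962), a chromosome 2 gene at −0.794 Mb from the start of Card9. Among the 7 genes themselves, r ran from −0.804 between Cacnb2 and Bend7 to 0.802 between Armc3 and Dnlz, and r between each of the 7 genes and Card9 ran from −0.560 to −0.007.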

How the data were processed

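RNA-Seq counts of 16 libraries, 4 per genotype by the labels, were used. The authors aligned reads to mm10 with HISAT2, filtered them with SAMtools, assigned them to genes with HTSeq and deposited whole-number counts without normalization. No tool version and no strand setting is given in the sources used here for these steps.

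Counts were fitted in R 4.3.3 with edgeR 4.0.16 (quasi-likelihood, 4 group means, all 16 libraries, TMM, filterByExpr with a minimum count of 10, 14513 of 55385 genes kept), with Benjamini-Hochberg adjustment over all genes tested and an FDR threshold of 0.1. CPM uses TMM library sizes, and log2 CPM adds a prior count of 2. SEs derive from the F statistic. The test was checked on simulated data. Positions are from GENCODE M21, matched for 53382 symbols, with 910 more from RefSeq. Promoter motifs were searched in the 250 bases before each start, but for Dnlz only in the 65 bases up to Card9.

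The 7 genes, lists and markers were chosen with earlier results of these data known. No p-value of the 7 genes is given in any comparison, and nothing is read from their passing a threshold. Also named were genes within 0.5 Mb of Card9, the 5 of lowest FDR on chromosome 2 in each direction, the 3 most alike per gene, and list members past the threshold. Markers of neurons, astrocytes, oligodendrocytes and smooth muscle were examined too: 0 tested markers of any list passed by Card9 genotype, and with transgenes 2 astrocyte markers were higher and 2 T cell, 2 neutrophil and 1 endothelial markers lower. Alternatives were an FDR of 0.05, DESeq2 1.42.0 or its size factors, other filters, a replicate block, 1 surrogate variable (sva 3.50.0), and leaving out libraries. No pair of libraries within a genotype was a copy (lowest chi-square per degree of freedom 6.28).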

Additional observations from a re-analysis of the deposited data

Results flagged for a closer look

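Armc3 and Dnlz each had single libraries far from the rest of their genotype, by Dixon's criterion at the 95% level. Armc3 was highest in WT replicate 1 (422 CPM), Card9-/- replicate 4 (316 CPM) and Card9-/-5xFAD replicate 4 (219 CPM). Dnlz was highest in Card9-/- replicate 4 (42.9 CPM) and 5xFAD replicate 1 (88.0 CPM). These are 5 of 32 checks, of 7 genes and Card9 in 4 genotypes, of which chance alone flags about 1 in 20. WT replicate 1 and both libraries numbered 4 are those with the fewest counts and the highest neutrophil marker sums, and 5xFAD replicate 1 is not among them. Each of these libraries, 5xFAD replicate 1 included, had the lowest microglial marker sum of its genotype. The part of neutrophils in these values was not tested.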

How the results depend on the processing

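The number of genes past the threshold between Card9-/- and WT moved from 0 to 2 without a filter on low counts, 5 with DESeq2 on all libraries, 8 with DESeq2 on only the 2 groups, 2 with 1 surrogate variable, and 0 to 1 when single libraries were left out. Between Card9-/-5xFAD and 5xFAD it moved from 0 to 1, 2, 9, 1, and 0 to 1, in the same order. The mean Card9 effect passed 4 genes, but 2 at an FDR of 0.05, 2 with DESeq2 size factors, 0 with at least 10 counts in every library, 106 with DESeq2, 75 with 1 surrogate variable, 2 without the 3 libraries of fewest counts, and 0 to 8 with single libraries left out. Within 25 Mb of Card9, where the 7 genes chosen on this contrast count too, the number was 2, against 0 at an FDR of 0.05, 0 with DESeq2 size factors, 0 with no filter, 0 with 10 counts in every library, 0 without the 3 libraries, 1 within 10 Mb, 9 with 1 surrogate variable, and 0 to 2 with single libraries left out. The transgene effect passed 1647 genes, against 920 at an FDR of 0.05, 1070 with no filter, 4576 with 1 surrogate variable, 4776 without the 3 libraries, and 955 to 3053 with single libraries left out. Genes apart in both backgrounds numbered 27, against 15 with at least 10 counts in every library, 108 without the 3 libraries, and 27 to 115 with single libraries left out. The causes of these moves were not tested.

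Prkcq and Armc3 changed direction. With transgenes, Prkcq turned to −0.23 without the 3 libraries and −0.20 without Card9-/-5xFAD replicate 4 (−0.20 to 0.72 over the single libraries left out). Armc3 turned to 0.18 without WT replicate 1 and 0.13 without 5xFAD replicate 1 by Card9 genotype (−2.84 to 0.18 and −1.95 to 0.13 over single libraries), and to 0.14 without the 3 libraries and 0.39 without Card9-/- replicate 4 with the transgenes (−1.40 to 0.39). Cacnb2 and Thnsl1 kept their direction by Card9 genotype in both backgrounds under all alternatives run.

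Whether replicate numbers pair the libraries was not settled. Deviations of same-numbered libraries correlated between −0.710 and 0.734, above 0.1 in 15 of 24 pairs. Those of libraries with different numbers correlated between −0.757 and 0.797. With the replicate number as a block, 0 genes passed by Card9 genotype in each background, 5 for the mean Card9 effect, 1 of them within 25 Mb of Card9, and 1871 with the transgenes. Counts of 0 to 27 per library limit what Bend7 can show.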

Other observations

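Etl4, a chromosome 2 gene 6.44 Mb from Card9 that was not among the 7 and is singled out here after its values were seen, was higher with the transgenes in both Card9 genotypes, given here without a test. The mean log2 fold change was 3.50 (SE 0.35), from 0.176 to 1.18 CPM in WT to 9.35 to 15.8 CPM in 5xFAD, and from 1.36 to 5.56 CPM in Card9-/- to 15.9 to 33.2 CPM in Card9-/-5xFAD.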
